A study of Mus musculus with 2 samples.

Results

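Purkinje cells and the inhibitory interneurons of the cerebellum arise from one embryonic progenitor zone, and a small group of transcription factors sets up and then accompanies these GABAergic lineages. The set described here holds 9 such genes, Foxp2, Ptf1a, Tfap2b, Ebf1, Ebf2, Ebf3, Lhx1, Lhx5 and Skor2, taken from a fixed list and matched by Ensembl gene identifier. All 9 were found among the 43346 annotated mouse genes of the deposited gene tables. Ptf1a is a basic helix-loop-helix factor of dividing progenitors that directs cells to a GABAergic fate. Lhx1 and Lhx5 are LIM homeodomain factors of young and mature Purkinje cells, Skor2 is a Ski-family corepressor needed for Purkinje cell differentiation, and Foxp2 is a forkhead factor kept on in adult Purkinje cells. The Ebf genes encode helix-loop-helix zinc finger factors that act in neuronal migration and in the patterning of Purkinje cell groups, and Tfap2b encodes AP-2 beta, a factor of GABAergic interneuron precursors.

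The data were polyadenylated RNA sequences from the cerebellum of C57BL/6J mice, the common inbred laboratory strain, at 8 weeks of age. Each label names pooled male and female littermates, no animal carried a transgene or treatment according to the labels, and the single group holds 2 libraries numbered as biological replicates 1 and 2. Both libraries cite one donor record, so the spread between them may be technical, and no condition was compared and no test was run. Annotated genes held 79771873 expected counts in replicate 1 and 80281011 in replicate 2. All 8 markers of Purkinje cells passed 1 TPM in both libraries, with a summed level of 2696 TPM in replicate 1 and 2246 TPM in replicate 2, while none of 5 markers of dividing progenitors did (1.59 and 1.35 TPM summed). The highest of those 5, Cdk1, stood at 1.23 and 0.99 TPM, and it passed 1 TPM in both libraries as posterior mean TPM or as TPM over nuclear genes only. TPM is a length-corrected relative abundance of transcripts, and levels below are TPM means ± SD over both libraries (n = 2) unless another unit is named. In whole tissue, fewer cells of a type and less RNA per cell cannot be told apart.

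Of the 9 factors, 8 reached 1 TPM in both libraries, beside 33.4% of all annotated genes and 60.9% of protein-coding genes. Lhx1 stood highest at 26.2 ± 3.64 TPM, followed by Ebf1 at 16.5 ± 0.93 TPM and Tfap2b at 13.7 ± 3.26 TPM. The other 5 detected factors lay between 2.56 and 5.76 TPM, close to the median of 4.77 TPM over 21474 protein-coding genes. Ptf1a was the exception at 0.03 TPM in replicate 1 and 0.05 TPM in replicate 2. In the order of levels the ranges of both libraries overlapped between Ebf1 and Tfap2b, between Lhx5 and Ebf3, and between Skor2 and Foxp2. All other neighbours in the order were separate, but Ebf3 and Skor2 only barely, at 4.77 and 4.74 TPM in replicate 1. The deposited RPKM values of the older mm9 processing gave the same order except that Ebf3 and Lhx5 changed places.

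**Figure D1:**
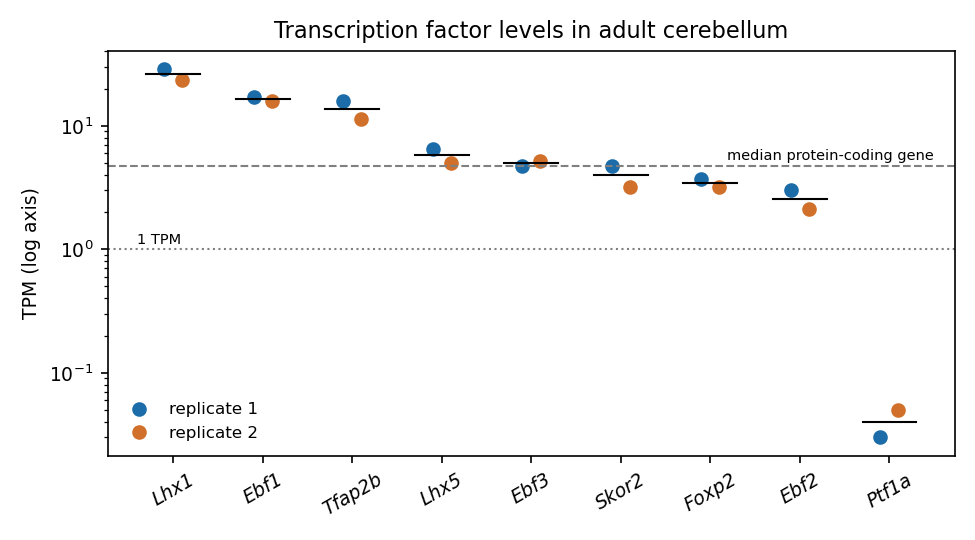
TPM on a log axis for each of the 9 factors, ordered by mean level; points are the 2 libraries, short black lines their mean, the dashed line the median protein-coding gene (4.77 TPM) and the dotted line 1 TPM. Lhx1, Ebf1, Tfap2b and Lhx5 lie above the dashed line in both libraries, Ebf3 lies at or just above it, and Ptf1a lies far below the dotted line.

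Ptf1a (ENSMUSG00000026735.2, mm10 chr2:19445663-19447501, plus strand) is the earliest acting factor of the set. It received 2 counts in replicate 1 and 4 in replicate 2, with 95% exact Poisson intervals of 0.24 to 7.22 and 1.09 to 10.2 counts. Both counts are at or near the floor of 3 counts, so no ratio between the libraries is given for this gene. A single spliced read crossed its only intron in the mm9 junction table. Its antisense neighbour Ptf1aos was listed at 0 in both libraries. The gene's RefSeq promoter, the 250 bases before its start, held 19 CpG dinucleotides, more than 80.3% of 32851 mouse promoters, whose median was 6.

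Lhx1 (ENSMUSG00000018698.11, mm10 chr11:84518284-84525535, minus strand) measured 28.8 TPM in replicate 1 and 23.6 TPM in replicate 2, from 3658 and 2987 counts. Its paralogue Lhx5 (ENSMUSG00000029595.8, mm10 chr5:120431699-120441223, plus strand) measured 6.52 and 5.00 TPM, from 835 and 677 counts. The ranges of the 2 paralogues did not overlap, and Lhx1 was higher in both libraries. Among 8 listed LIM homeodomain genes Lhx1 supplied 70.0 ± 3.43% of the summed TPM and Lhx5 15.3 ± 1.49%. The next relative, Lhx9, stood at 2.27 ± 0.51 TPM, and Lhx6 and Lhx8, which mark forebrain interneuron lineages, lay at or under 0.16 TPM in both libraries. The leading transcripts of Lhx1 and Lhx5 shared no stretch as long as a read, and their longest identical run was 20 bases.

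Both Purkinje LIM homeodomain genes had a transcribed non-coding neighbour that starts beside them on the other strand. For Lhx1 this was the long non-coding RNA gene Lhx1os (mm10 chr11:84525660-84535831, plus strand), whose start lies 125 bases from that of Lhx1. It measured 69.2 TPM in replicate 1 and 60.3 TPM in replicate 2, from 1274 and 1156 counts, a mean level 2.47 times that of Lhx1 itself. For Lhx5 it was the antisense gene Gm27199 (mm10 chr5:120419659-120431767, minus strand), with 5.28 and 5.77 TPM from 112 and 128 counts. Its start lies 68 bases from that of Lhx5, and the genes overlap by 69 bases. On the TPM scale the neighbour was thus above its partner at Lhx1, while at Lhx5 the partner led in replicate 1 and Gm27199 in replicate 2. By counts both neighbours were below their partners, and the TPM of Lhx1os rests on a mean transcript length of 544 bases. None of the other 6 detected factors had such a neighbour at 1 TPM. Over all 13074 protein-coding genes at 1 TPM or more in both libraries, 2.27% had a non-coding gene at 1 TPM or more on the other strand starting within 1000 bases.

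The bases before Lhx1 are shown because they hold both start sites. The sequence is the RefSeq promoter of GRCm38.p6, read on the minus strand, chr11:84525535-84525784, and capitals mark the 124 bases between the GENCODE starts of Lhx1os and Lhx1.
Lhx1 promoter: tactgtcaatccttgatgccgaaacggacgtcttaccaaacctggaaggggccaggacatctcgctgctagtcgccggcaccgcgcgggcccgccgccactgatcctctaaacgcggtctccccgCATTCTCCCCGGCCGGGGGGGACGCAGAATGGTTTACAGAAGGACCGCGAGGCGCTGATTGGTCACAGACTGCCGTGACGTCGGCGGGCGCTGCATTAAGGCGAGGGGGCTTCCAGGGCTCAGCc
The 250 bases held 26 CpG dinucleotides, more than 90.4% of mouse promoters, and 12 of them lay in the capitals.

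The strand-specific mm9 contigs, which are stretches of continuous read coverage called by the authors over both libraries, extended past these annotated starts. An antisense contig at Lhx1 (mm9 chr11:84336202-84342368) ran 3445 bases upstream of the Lhx1 start and 2722 bases into the gene, with a signal of 1.55 against 4.20 on the Lhx1 strand. A second antisense contig followed directly (mm9 chr11:84342382-84350007) at a signal of 4.03, so neither exceeded the signal on the Lhx1 strand. At Lhx5 an antisense contig (mm9 chr5:120879363-120882518) covered the last 2532 bases before the start and 624 bases inside the gene at a signal of 0.342. The Lhx1 sense contig itself began 1177 bases before the start annotated in Ensembl 65.

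Splicing of the Lhx genes was simple. Lhx1 had 1532 spliced reads, 98.1% of them over introns of Ensembl 65, and Lhx5 had 451, with 97.3% annotated. At the first intron of Lhx1 the outer first exon took 195 and 164 reads and an inner first exon of 82 bases took 7 and 3, or 3.47% (95% Wilson interval 1.69 to 6.98) and 1.80% (0.61 to 5.15). The mm9 tables number their replicates 1 and 2 without naming a library, and spliced read counts below are given in that order. Of the Lhx1 TPM, 55.3% and 50.1% were assigned to the full-length transcript Lhx1-201, and 36.2% and 40.1% to Lhx1-204, a coding model of 1201 bases. By counts Lhx1-201 held 84.0% and 80.9%, since TPM divides each count by transcript length.

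Skor2 (ENSMUSG00000091519.1, mm10 chr18:76856405-76900342, plus strand) measured 4.74 TPM in replicate 1 and 3.19 TPM in replicate 2, from 739 and 526 counts. Foxp2 (ENSMUSG00000029563.12, mm10 chr6:14901349-15441977, plus strand) measured 3.72 and 3.21 TPM, from 958 and 992 counts. Both were higher in replicate 1 on this scale and their ranges overlapped, so their order is not resolved. Skor2 supplied 42.8 ± 1.81% of the Skor1 and Skor2 total, and Skor1 the larger rest. Foxp2 was the minor detected member of its family. It held 6.53 ± 0.60% of the Foxp total, behind Foxp4 with 65.5 ± 1.75% and Foxp1 with 27.9 ± 1.17%, and Foxp3, the regulatory T cell factor, was at 0.02 TPM.

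Every one of the 8 Skor2 introns annotated in Ensembl 65 was spliced in both numbered replicates, and 98.8% of its 689 spliced reads fell on them. The sense contig at its last exon ran 722 bases past the annotated mm9 end, and another began 703 bases before the annotated start. At Foxp2, which spans 541 kb, spliced reads were unevenly spread. Its outermost introns at the 5′ end took 5 and 2 reads, 0 and 5 reads, and 5 and 8 reads in transcript order, whereas the best covered intron of its 3′ part took 60 and 48. In the 3′ part an acceptor choice that leaves out 63 bases took 2 of 20 and 3 of 12 reads, too few to place the share more closely than 2.79 to 30.1% and 8.89 to 53.2% (95% Wilson intervals). Its leading transcript model Foxp2-207 took 44.6% of the TPM in replicate 1 and 55.2% in replicate 2, out of 19 models. Sense contigs covered 62.7% of the annotated exonic bases of Foxp2, against 98.2 to 100% for Ebf1, Ebf3, Tfap2b, Lhx1, Lhx5 and Skor2, and 84.7% for Ebf2.

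The 3 Ebf genes of the set differed in level. Ebf1 (ENSMUSG00000057098.10, mm10 chr11:44617317-45008091, plus strand) measured 17.2 TPM in replicate 1 and 15.9 TPM in replicate 2, from 4014 and 4003 counts. Ebf3 (ENSMUSG00000010476.9, mm10 chr7:137193673-137314445, minus strand) measured 4.77 and 5.20 TPM, from 1198 and 1379 counts. Ebf2 (ENSMUSG00000022053.9, mm10 chr14:67233292-67430918, plus strand), which in Purkinje cells is known for its restriction to a subset of stripes, measured 3.01 and 2.11 TPM, from 769 and 562 counts. The ranges of the 3 genes did not overlap, and Ebf1 was the highest in both libraries. The family's other member, Ebf4, lay between Ebf1 and Ebf3 at 6.69 ± 0.34 TPM. Of the family total Ebf1 supplied 53.7 ± 0.23%, Ebf4 21.7 ± 0.03%, Ebf3 16.2 ± 1.84% and Ebf2 8.28 ± 1.64%. No stretch as long as a read was shared between the leading transcripts of Ebf1, Ebf2 and Ebf3, and the longest identical run was 24 bases, between Ebf1 and Ebf3.

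These paralogues also share their exon plan. Ebf2 and Ebf3 have 12 consecutive exons of identical length, and the first 6 of these, 157, 64, 56, 74, 69 and 82 bases, are the same in Ebf1. In all 3 genes the longest intron follows the exon of 69 bases, but its length falls from 225.6 kb in Ebf1 to 124.6 kb in Ebf2 and 71.5 kb in Ebf3. This intron was spliced out by 122 and 145 reads in Ebf1, 10 and 8 in Ebf2, and 30 and 19 in Ebf3. In Ebf3 the exon of 82 bases was also joined from sites inside this intron. Those joins took 2 and 5, 3 and 2, and 4 and 2 reads, which are not counted here. The medians over the introns with reads were 165 and 171 in Ebf1, 23 and 16 in Ebf2, and 50 and 53 in Ebf3. The longest intron was therefore below its gene's median in all 3 genes and both numbered replicates. It was not always the lowest, since an Ebf1 intron of 2.10 kb took 58 and 71 reads. An Ebf2 intron of 2.18 kb took 18 and 4 reads, and an Ebf3 intron of 0.105 kb took 17 and 21. A link with intron length was not tested.

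**Figure D2:**
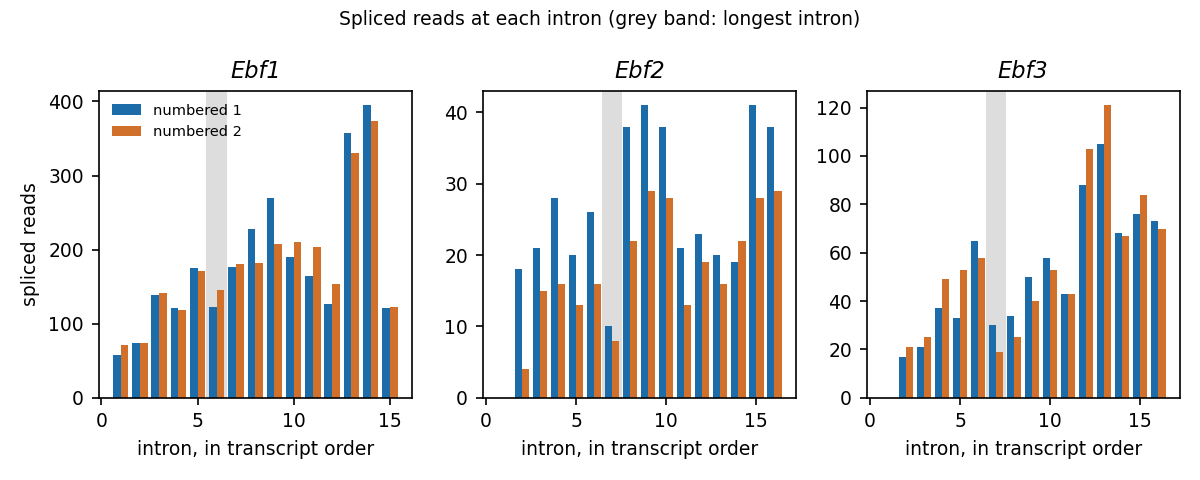
Spliced reads at each intron of Ebf1, Ebf2 and Ebf3 in transcript order (mm9); blue and orange bars are the replicates numbered 1 and 2, the grey band marks the longest intron, and reads of alternative sites are added up only for the donor choices of Ebf1 and Ebf3 and the long acceptor of Ebf3. Reads rise towards the 3′ part of Ebf1 and Ebf3, and the grey band holds fewer reads than the gene's median in each panel; the vertical scales differ.

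The exon that follows the one of 82 bases carries the splice choice in which Ebf1 differed from Ebf3. Its donor can be used at 118 bases in Ebf1, Ebf2 and Ebf3, or further downstream in Ebf1 and Ebf3, and the next exon of Ebf1 can also start at either of 2 acceptors that are 3 bases apart. The joined exons are shown with 18 bases of common sequence on either side. All lie in coding sequence, and capitals mark the bases that a longer donor or the first acceptor adds, from GENCODE M21 transcripts on mm10. The added bases of Ebf1 are at chr11:44883932-44883955 and chr11:44907904-44907906, and those of Ebf3 at chr7:137231164-137231190 on the minus strand.
Ebf1-202: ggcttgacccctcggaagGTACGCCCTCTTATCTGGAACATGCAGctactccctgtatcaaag
Ebf1-201: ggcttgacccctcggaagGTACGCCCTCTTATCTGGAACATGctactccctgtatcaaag
Ebf1-203: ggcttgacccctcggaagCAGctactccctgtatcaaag
Ebf2-203: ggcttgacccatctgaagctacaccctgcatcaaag
Ebf3-204: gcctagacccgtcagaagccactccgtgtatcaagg
Ebf3-208: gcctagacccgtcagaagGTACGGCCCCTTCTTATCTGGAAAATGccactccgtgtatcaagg
The donor segment has 24 bases in Ebf1, or 8 codons, and 27 bases in Ebf3, or 9 codons. Both segments begin with GT, the dinucleotide of the shorter donor. Of the 24 bases of Ebf1, 23 occur in the same order in the Ebf3 segment, with a longest identical run of 12.

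Despite this likeness the genes used the segment very differently. In Ebf1 the longer donor took 168 of 228 spliced reads in the replicate numbered 1, 73.7% (95% Wilson interval 67.6 to 79.0), and 138 of 182 in the replicate numbered 2, 75.8% (69.1 to 81.5). In Ebf3 it took 1 of 50 reads, 2.00% (0.35 to 10.5), and 2 of 40 reads, 5.00% (1.38 to 16.5). The intervals of the 2 genes were far apart in both numbered replicates. No model with a longer donor exists for Ebf2 in the annotations used.

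Both acceptors of Ebf1 were common. The first one, which adds CAG, took 39.5% (33.4 to 45.9) and 43.4% (36.4 to 50.7) of the reads. With the short donor it took 12 of 60 reads, 20.0% (11.8 to 31.8), and 14 of 44, 31.8% (20.0 to 46.6). With the long donor it took 78 of 168, 46.4% (39.1 to 54.0), and 65 of 138, 47.1% (39.0 to 55.4). It was thus the less used acceptor after a short donor in both numbered replicates, with intervals that were separate in the replicate numbered 1 and overlapped in the replicate numbered 2.

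Shares of transcript models did not show all 4 combinations. The mm10 annotation of the authors has no full Ebf1 model with both the short donor and the second acceptor, a join that took 48 and 30 spliced reads, more than the 12 and 14 of the annotated short form. Of the TPM of Ebf1 models with a known donor, 92.9% and 91.9% carried the long donor, against the 73.7% and 75.8% of spliced reads. Ebf1-201 led with 58.2% and 59.9% of the gene's TPM, ahead of Ebf1-202 with 18.2% and 16.6% and Ebf1-203 with 5.88% and 6.86%. Processed transcripts without a coding frame made up the remainder.

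A further optional exon of Ebf1, of 180 bases, was skipped in 16 of 373 reads, 4.29% (2.66 to 6.85), in the replicate numbered 1, but in 1 of 332, 0.30% (0.05 to 1.69), in the replicate numbered 2. These intervals do not overlap, and they cover counting error only. Ebf3 had a second frequent choice near its 3′ end, an acceptor that lengthens an exon of 90 bases by 108 coding bases (mm10 chr7:137198582-137198689). The long form took 25 of 76 reads, 32.9% (23.4 to 44.1), and 27 of 84, 32.1% (23.1 to 42.7). An unannotated middle acceptor took a further 6 of 76 reads, 7.89% (3.67 to 16.2), and 2 of 84, 2.38% (0.66 to 8.27). Its reads were counted as not long, although this acceptor lies just inside the long one and keeps nearly all of the added bases. In the authors' mm10 transcript shares the long form held 47.1% and 45.2% of Ebf3 TPM. In the authors' mm9 exon table the long donor and the long acceptor of Ebf3 have one and the same value, 19.9% and 35.7% of the gene's RPKM, because each exon value there is the sum over its transcripts. That equality held within 0.0001 RPKM for all 154 exons of the 9 genes, so exon RPKM gave no separate view of a single exon. Spliced reads told the 2 choices apart, the donor being rare and the acceptor common.

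Reads also joined Ebf3 exons to sequence outside Ensembl 65. An exon of 113 bases before the last exon (mm9 chr7:144389114-144389226) was entered by 13 and 11 reads, beside 73 and 70 that went directly to the last exon, 15.1% (9.05 to 24.2) and 13.6% (7.76 to 22.7). Annotated introns held 95.4% of the 1705 spliced reads of Ebf3, 97.9% of the 5548 of Ebf1 and 96.5% of the 705 of Ebf2.

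**Figure D3:**
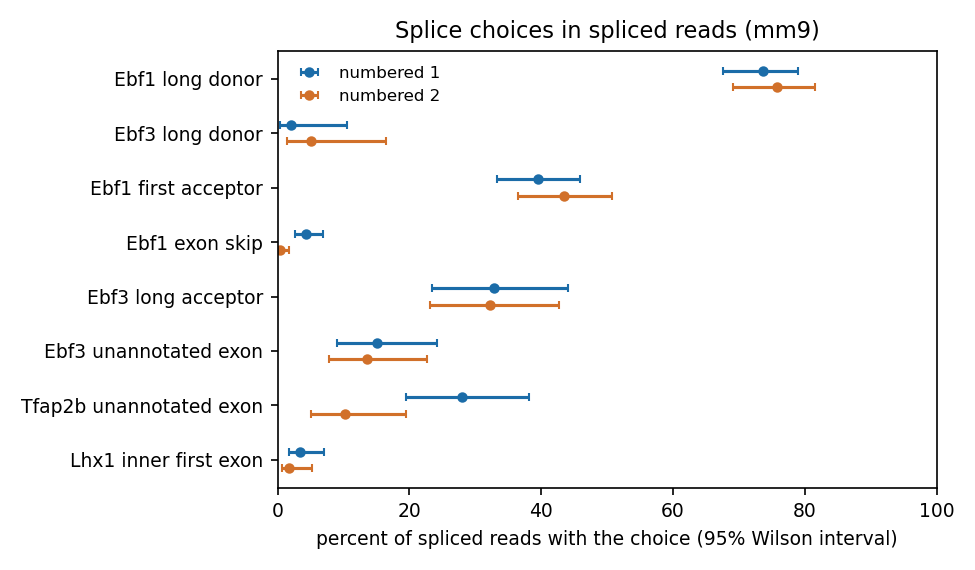
Percent of spliced reads that used each named choice, with 95% Wilson intervals; blue and orange are the replicates numbered 1 and 2 in the mm9 table. The long donor lies at 73.7% and 75.8% in Ebf1 and at 2.00% and 5.00% in Ebf3, and the Ebf1 exon skip and the unannotated Tfap2b exon have intervals that do not overlap between replicates.

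Among the longest introns of the Ebf genes, sense signal was highest in Ebf1. Sense contigs covered 95.3% of its intron of 225.6 kb at a mean signal of 0.295, against 0.0328 over 48.8% of the long Ebf2 intron and 0.0319 over 49.8% of the long Ebf3 intron. The contig signal is on the authors' own scale. Over all its introns Ebf1 had a mean sense signal of 0.249, below the 0.296 of Tfap2b, the 0.977 of Lhx5 and the 4.20 of Lhx1, where a single contig with one value spans exons and introns. In 10 equal bins the Ebf1 signal was 0.438 in the first, which holds an annotated exon of 3351 bases, 0.460 in the second, 0.301 in the sixth and 0.0597 in the tenth. Split at its midpoint, the mean signal of the 5′ side of the intron exceeded that of the 3′ side 2.24 times in Ebf1. The same ratio was 2.45 in Ebf2 and 1.63 in Ebf3, so the 5′ side was higher in all 3 genes. Along the bins the fall was not steady in Ebf2 and Ebf3. In Ebf3 the highest signal was 0.0607 in bin 4, above the 0.0469 of bin 1. Ebf2 stood at 0.0617 in bin 4 and 0.0620 in bin 1. Bin 6 of Ebf3 holds 274 annotated exon bases. Antisense signal over the same introns was at most 0.00035.

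**Figure D4:**
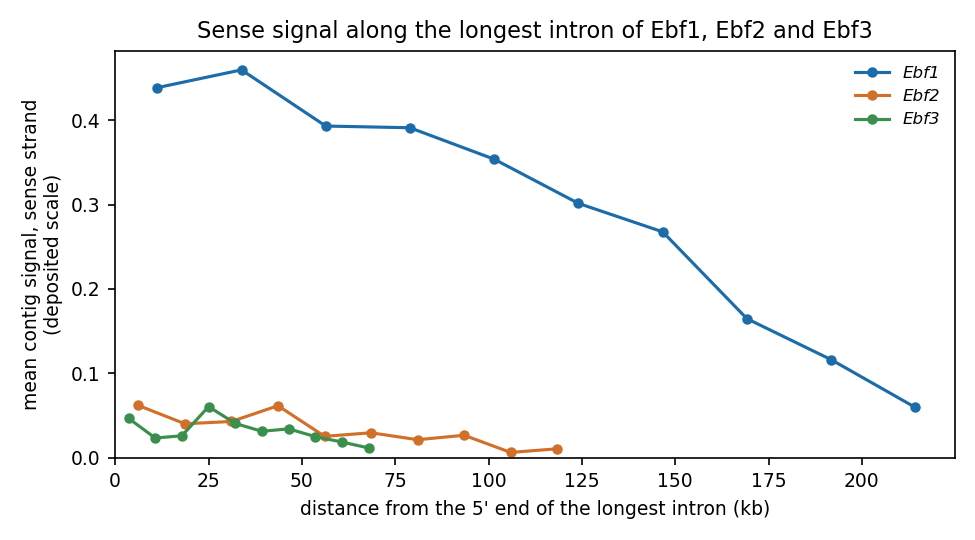
Mean sense contig signal in 10 equal bins along the longest intron of Ebf1, Ebf2 and Ebf3, against the distance of the bin centre from the 5′ end of the intron in kb (mm9). The Ebf1 line falls from 0.460 in its second bin to 0.0597 in its last, above both other genes at every distance they share.

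Tfap2b (ENSMUSG00000025927.9, mm10 chr1:19208914-19238576, plus strand) measured 16.0 TPM in replicate 1 and 11.4 TPM in replicate 2, from 2393 and 2003 counts. The gene was higher in replicate 1. It supplied 75.1 ± 2.92% of the TPM of 5 AP-2 genes, and Tfap2a, known to act with it in cerebellar interneuron precursors, supplied 17.6 ± 0.13%. A sizeable part of this TPM lay on short non-coding models. The retained-intron models Tfap2b-203 and Tfap2b-205 of 592 and 610 bases held 27.5% and 13.8% of the TPM in replicate 1, and 14.2% and 20.2% in replicate 2. Coding models therefore held 58.6% and 65.6% of the TPM, but 94.1% and 95.6% of the counts. On coding models alone Tfap2b stood at 9.36 TPM in replicate 1 and 7.45 TPM in replicate 2, below the range of Ebf1.

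Spliced reads of Tfap2b were the least often annotated of the 8 factors with more than 1 read, at 89.2% (86.9 to 91.1) of 850, against 95.4 to 98.8% for the others. Most of the remainder belonged to 2 exons absent from Ensembl 65. The first has 27 bases (mm9 chr1:19202478-19202504) and uses an acceptor within an annotated inner first exon. It was entered from the outer first exon by 24 reads beside 62 that skipped it, 27.9% (19.5 to 38.2), in the replicate numbered 1, and by 7 beside 62, 10.1% (5.00 to 19.5), in the replicate numbered 2. The second has 63 bases (mm9 chr1:19225445-19225507) and lies before the last exon, with 4 and 8 reads into it and 14 and 22 out of it. The direct join it interrupts took 4 and 0 reads.

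The 2 libraries were compared after counts were scaled by TMM, which adjusts for library size and composition. None of the 8 factors with at least 10 counts was 2-fold apart, beside 0.637% of 15543 genes with at least 100 counts. Skor2 differed most, with a log2 ratio of replicate 1 over replicate 2 of 0.50, followed by Ebf2 at 0.46, Lhx5 at 0.31, Lhx1 at 0.30 and Tfap2b at 0.27. Ebf1 at 0.02 and Foxp2 at -0.04 were nearly level, and Ebf3 at -0.19 was the factor lowest in replicate 1. The median size of the log2 ratio over all genes compared was 0.09, and every factor except Ebf1 and Foxp2 exceeded it. Ratios as large as that of Skor2 or larger were seen in 4.19% of the genes compared, and as large as that of Tfap2b or larger in 14.7%. For Foxp2 the direction depended on the scale, since TPM was higher in replicate 1 while counts were not. The authors' mean transcript length for Foxp2 was 5061 bases in replicate 1 and 5725 bases in replicate 2.

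The median log2 ratio of the 8 factors was 0.29, beside a median of 0.00 over all genes compared. Markers of several cell types, Purkinje cells among them, shifted too. The log2 ratio was above 0 for all 8 Purkinje cell markers, with a median of 0.20, and for all 6 granule neuron markers, with a median of 0.24. The 5 choroid plexus markers had a median of 1.33 and summed levels of 2125 and 779 TPM, and 4 of them were 2-fold apart. The 8 markers of GABAergic interneurons had a median of 0.00, but their ratios ran in both directions, from -0.55 to 0.39. The part of tissue composition in the ratios of the factors was not tested.

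**Figure D5:**
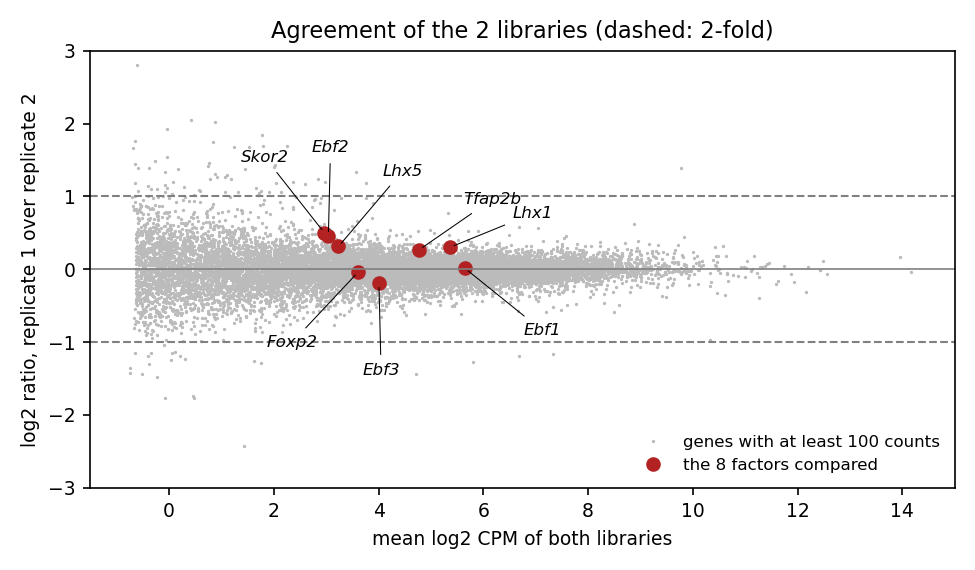
Log2 ratio of replicate 1 over replicate 2 against mean log2 CPM for 15543 genes (grey) and the 8 factors compared (red); dashed lines mark 2-fold and 12 genes lie beyond the axis limit of 3. All 8 factors lie inside the dashed lines, from -0.19 for Ebf3 to 0.50 for Skor2.

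Genes that work with these factors were mostly present. Of 24 partner genes, with a median of 25.4 TPM, 23 reached 1 TPM in both libraries, beside 60.9% of protein-coding genes. The highest were the corepressor gene Ctbp1 at 157 ± 0.55 TPM, Ldb1, the LIM domain binding cofactor through which Lhx1 and Lhx5 act, at 107 ± 7.16 TPM, and Ssbp3, which binds Ldb1, at 84.0 ± 6.15 TPM. The lowest was Rbpjl, the partner of Ptf1a in the pancreas, at 0.23 ± 0.01 TPM. Among 15 family relatives 8 reached 1 TPM in both libraries, beside the same 60.9%. They were led by Foxp4 at 34.7 ± 0.52 TPM, Foxp1 at 14.8 ± 0.79 TPM and Ebf4. Lhx8 was the lowest, at 0.03 and 0 TPM.

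Of 15 other regulators of the GABAergic and Purkinje lineage, 8 reached 1 TPM in both libraries, beside 60.9% of protein-coding genes. Rora, the nuclear receptor required for Purkinje cell maturation, led at 39.0 ± 2.77 TPM, ahead of Olig2, which is also a factor of oligodendrocytes, at 21.5 ± 2.00 TPM and Bhlhe22 at 17.4 ± 2.25 TPM. Helt, a progenitor factor of midbrain GABAergic neurons, was listed at 0. For the glutamatergic lineage 6 of 9 regulators reached 1 TPM in both libraries, beside the same 60.9%. The highest were Neurod1 at 175 ± 32.9 TPM, Pax6 at 60.5 ± 9.87 TPM and Neurod2 at 40.6 ± 5.98 TPM, all of them expressed in granule neurons. Atoh1, which directs glutamatergic progenitors as Ptf1a directs GABAergic ones, was lowest at 0.01 and 0.03 TPM. The fate-determining factors of both lineages were thus at or under 0.05 TPM in each library.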

How the data were processed

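The 2 poly-A RNA libraries of adult cerebellum formed 1 group. Per the file headers the authors deposited, for each mm10 gene and transcript, an expected count, TPM, FPKM and posterior mean TPM, and the deposited transcript tables give each transcript's percent of its gene's TPM; the aligner is not given in the sources used here. For mm9 the authors deposited RPKM values per Ensembl 65 gene, transcript and exon in attribute text, a count of reads per splice junction, a coverage signal per contig, and an irreproducibility value as a fraction in both tables. Mm9 and mm10 were joined only by gene identifier. Names and coordinates came from GENCODE M21, which matched 42462 of 43346 genes (98.0%).

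Expected counts were rounded and scaled by TMM in edgeR 4.0.16 (R 4.3.3), with a prior count of 2, at least 100 counts over both libraries for all genes and 10 for the factors. DESeq2 1.42.0 size factors were an alternative. The 2-fold call was run on simulated data that held only changes larger than 2-fold. It was therefore not checked on changes of 2-fold itself, and the outcome is not given here. Junctions count as annotated where both ends match 1 Ensembl 65 intron. Intervals are 95% Wilson or exact Poisson and cover counting error only. Named genes were all 9 factors, and the 3 highest and the lowest of each gene list. Lhx9, Lhx6, Skor1, Tfap2a, Foxp3, Cdk1 and the neighbours on the other strand fall outside this rule and were chosen after their values were seen. The members and lists were chosen with earlier results of these data known. Splice choices and contigs described singly were chosen after their reads were seen. Genes assembled by Cufflinks were not used here. Sequences came from GENCODE M21 transcripts and the RefSeq promoter table, which matched 5 of the 9 genes.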

Additional observations from a re-analysis of the deposited data

How the results depend on the processing

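The summed level of the 9 factors was 77.2 TPM, 50.1 as FPKM, 105.7 as TPM over nuclear genes only, and 9.28 as mm9 RPKM. The number of all genes 2-fold apart was 99, 1632 with no count minimum and 37 on log2(TPM + 1). None of the 8 factors compared passed 2-fold under any scaling, prior count or pseudocount tried. The ratio of Foxp2 turned from -0.04 to 0.16 on log2(TPM + 1) and 0.21 on log2(TPM + 0.1). The share of annotated spliced reads over all factors was 96.8%, 98.3% for junctions with at least 3 reads and 98.6% at an irreproducibility value under 0.1, and that filter left 581 of 946 sense contigs. The cause was not tested, except that these filters keep fewer junctions, contigs or, without a minimum, more genes. Leading transcripts stayed the same for all 9 genes under the 4 alternatives tried. No paired analysis was possible because the 2 libraries form a single group. Depth limits Ptf1a, with 2 and 4 counts. It also limits the splice shares of Foxp2, Ebf3 and Tfap2b, and that of the Ebf1 acceptors after the short donor. These splice shares rest on 12 to 86 reads.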
